A study of Mus musculus with 2 samples.

Results

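The GIMAP genes (GTPases of immunity-associated proteins) of the mouse were followed in regulatory T cells that had or lacked Hopx. The members were the 8 genes Gimap1, Gimap3, Gimap4, Gimap5, Gimap6, Gimap7, Gimap8 and Gimap9, taken by platform gene symbol, and they were measured by 11 of the 45101 probe sets on the array. They made up 8 of the 18193 genes with a value. The data are 2 single-colour Affymetrix arrays of total RNA, 1 of Hopx-sufficient cells and 1 of Hopx-/- cells, called Hopx-deficient below. Both samples were regulatory T cells induced in vivo through dendritic cells, taken directly from immunized mice and sorted on CD25 and Foxp3 without further culture. Strain, age, sex, the antigen and the number of mice behind each array are not given in the sources used here, nor is the nature of the Hopx allele or of the sufficient controls.

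GIMAP proteins are GTP-binding proteins related to the septins and found mainly in lymphocytes, where they sit on membranes of the endoplasmic reticulum, Golgi, mitochondria, lysosomes or lipid droplets. They are best known from animals that lack Gimap5, in which peripheral T cells are lost. Their transcripts are typically abundant in resting T cells and fall when T cells are activated and divide. Hopx is a small homeodomain cofactor that does not bind DNA itself and is known for its part in the persistence of induced regulatory T cells.

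The 8 genes form a single block on chromosome 6, in the order Gimap8, Gimap9, Gimap4, Gimap6, Gimap7, Gimap1, Gimap5 and Gimap3, with no other protein-coding gene of the RefSeq table (GRCm38.p6) inside it. RefSeq promoter windows were found for all 8 genes. The 250 bases before the start are shown for the genes with the highest and second highest difference (Gimap6 and Gimap4) and for the gene with the lowest (Gimap5), so that the sequences at both ends of the range can be read beside the values. Capitals mark matches on either strand to the motifs GGAAGT (ETS factors), TGTGGT (RUNX factors) and CCACCC (KLF factors). The windows lie at chr6:48708245-48708494 on the minus strand, chr6:48684328-48684577 on the plus strand and chr6:48745947-48746196 on the plus strand of GRCm38.p6, and each is written 5′ to 3′ in the direction of the gene.
Gimap6: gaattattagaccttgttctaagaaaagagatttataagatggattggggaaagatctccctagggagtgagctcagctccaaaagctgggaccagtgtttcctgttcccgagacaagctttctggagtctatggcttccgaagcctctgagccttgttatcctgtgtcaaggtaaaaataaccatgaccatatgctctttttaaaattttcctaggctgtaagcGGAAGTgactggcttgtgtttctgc
Gimap4: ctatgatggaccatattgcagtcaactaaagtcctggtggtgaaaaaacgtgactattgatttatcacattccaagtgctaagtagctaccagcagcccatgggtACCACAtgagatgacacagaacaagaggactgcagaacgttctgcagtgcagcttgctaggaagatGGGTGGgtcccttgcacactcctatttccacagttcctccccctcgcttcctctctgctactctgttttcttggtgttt
Gimap5: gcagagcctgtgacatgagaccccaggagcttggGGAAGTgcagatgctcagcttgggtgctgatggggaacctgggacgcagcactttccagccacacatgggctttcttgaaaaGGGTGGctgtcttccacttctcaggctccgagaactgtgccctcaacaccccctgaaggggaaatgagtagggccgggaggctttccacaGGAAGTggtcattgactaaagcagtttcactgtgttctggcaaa

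Gimap6 held 1 GGAAGT match, Gimap4 held 1 TGTGGT and 1 CCACCC match, and Gimap5 held 2 GGAAGT matches and 1 CCACCC match. No motif was shared by the windows of all 8 genes. GGAAGT was found in the windows of 2 genes (Gimap5 and Gimap6), against 19.7% of the 32851 windows of the same length in the table. TGTGGT was found in 3 genes (Gimap1, Gimap4 and Gimap7), against 14% of windows. CCACCC was found in 5 genes (Gimap3, Gimap4, Gimap5, Gimap8 and Gimap9), against 28.1% of windows. The FOXO motif GTAAACA matched Gimap3 alone, against 3.17% of windows. The AP-1 motif TGANTCA (6.75% of windows) and the CArG box of serum response factor (1.47% of windows) matched none of the 8. Gimap8 entered with 2 overlapping windows, of which 1 held CCACCC. No matches overlapped each other in these windows. A match is a description of the letters and does not show a bound site.

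All 8 GIMAP genes were higher on the Hopx-deficient array, against 51.4% of all genes that were higher and 47.4% that were lower. Each of the 11 probe sets was higher too, against 50.6% of all probe sets with 1 gene symbol. The gene values ran from 0.26 to 0.50 on the log2 scale, Hopx-deficient minus Hopx-sufficient, which is 1.2-fold to 1.41-fold, with a median of 0.31 (1.24-fold). The median of all genes was 0.01. Since each genotype had a single array, these values carry no replicate error and no p-value. In RNA from sorted cells, a larger share of cells of a type and more RNA per cell cannot be told apart.

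The deposited values are given relative to the mean of both arrays, probe set by probe set, so the arrays mirror each other and the difference is the measurement. They hold no signal level, and levels of different GIMAP genes cannot be compared. In the sentences below the value on each array is given before the difference.

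Gimap6, whose product binds the ATG8-family protein GABARAPL2 and acts in autophagy, differed most. Its first probe set (1456762_at) stood at -0.29 on the Hopx-sufficient and 0.29 on the Hopx-deficient array, a difference of 0.59 (1.5-fold). Its second (1427891_at) stood at -0.20 and 0.20, a difference of 0.40 (1.32-fold). Both lay on the same side, and their mean of 0.50 (1.41-fold) put Gimap6 at rank 128 of 18193 genes from the highest, above 99.3% of them.

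Gimap4, which has been described as speeding the death of T cells, came next. The probe set 1424374_at stood at -0.21 on the Hopx-sufficient and 0.21 on the Hopx-deficient array, a difference of 0.41 (1.33-fold). The probe set 1424375_s_at stood at -0.14 and 0.14, a difference of 0.28 (1.21-fold). The suffix _s_at marks probes that may match more than 1 transcript, and this was the only GIMAP probe set with such a suffix. No probe sequences were available, so whether any GIMAP probe set also matches other GIMAP genes could not be checked. The mean of Gimap4 was 0.35 (1.27-fold), above 96.5% of genes, and without the _s_at probe set it would be the 0.41 of the other.

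Gimap1, which mature T and B cells need to survive, was measured by 1 probe set. It stood at -0.17 on the Hopx-sufficient and 0.17 on the Hopx-deficient array, a difference of 0.34 (1.27-fold), above 96.4% of genes. This was almost the same size as the difference of Gimap4.

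Gimap5 and its neighbour Gimap3 encode the members most closely tied to T cell survival. Gimap5, a protein of lysosomes and multivesicular bodies, stood at -0.13 on the Hopx-sufficient and 0.13 on the Hopx-deficient array. Its difference of 0.26 (1.2-fold) was the lowest of the 8, though above 92.2% of genes. Gimap3, which is functional in mice but a pseudogene in humans, stood at -0.16 and 0.16, a difference of 0.32, above 95.7% of genes. Each had 1 probe set, so neither value has a second reading.

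The other 3 members lay close together. Gimap7, a GTPase that forms dimers with its relatives, had 2 probe sets at -0.15 and 0.15 on the 2 arrays, with differences of 0.29 and 0.30 (mean 0.30, 1.23-fold). Gimap8, which carries several GTPase domains in a row, stood at -0.15 on the Hopx-sufficient and 0.15 on the Hopx-deficient array, a difference of 0.29 (1.22-fold). Gimap9 stood at -0.15 and 0.15, a difference of 0.29 (1.23-fold). They were above 94.5%, 94.1% and 94.3% of genes in the order named.

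**Figure D1:**
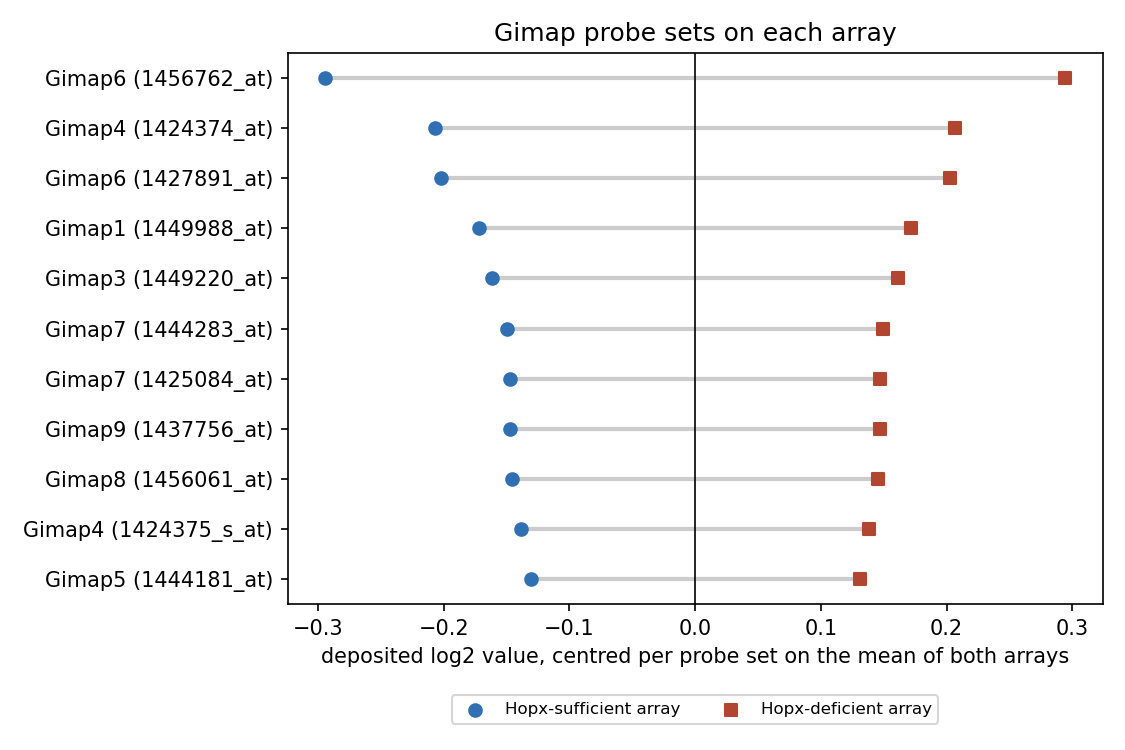
The deposited log2 value of each of the 11 GIMAP probe sets (vertical axis, gene and probe set) on the Hopx-sufficient array (blue circles) and the Hopx-deficient array (red squares), centred per probe set on the mean of both. Each Hopx-deficient value lies to the right of 0, and the distance between the points, which is the difference, runs from 0.26 (Gimap5) to 0.59 (Gimap6).

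In falling order the genes were Gimap6 (0.50), Gimap4 (0.35), Gimap1 (0.34), Gimap3 (0.32), Gimap7 (0.30), Gimap9 (0.29), Gimap8 (0.29) and Gimap5 (0.26). Without Gimap6 the remaining 7 lay within 0.08 of each other on the log2 scale. The standard deviation over the 8 genes was 0.07, against 0.18 between probe sets of the same gene over the 9010 genes with several probe sets, and 0.21 between all genes. Each gap between neighbours in this order, that between Gimap6 and Gimap4 included, was smaller than the spread between probe sets of a gene. The lower probe set of Gimap6 (0.40) lay below the higher one of Gimap4 (0.41). The 2 probe sets of Gimap6 were 0.18 apart, those of Gimap4 0.14 and those of Gimap7 0.004.

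The differences were small in fold. As a rule of size and not a test, a gene was counted when it was at least 25% higher on one array than on the other, a log2 difference of 0.32. By it 4 of the 8 genes were higher (Gimap1, Gimap3, Gimap4 and Gimap6), against 4.36% of all genes. Gimap3 lay just inside the rule, and Gimap7 (0.30) was the nearest outside it; with differences centred on the median of all probe sets, Gimap3 fell outside and 3 genes remained. None of the 8 was lower by that fold, against 6.61% of all genes. At 1.1-fold all 8 were higher, against 22.5% of all genes, and at 1.5-fold none was, against 0.313%. All 8 exceeded the 90th percentile of gene differences (0.23), and 4 of them exceeded the 95th (0.31).

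**Figure D2:**
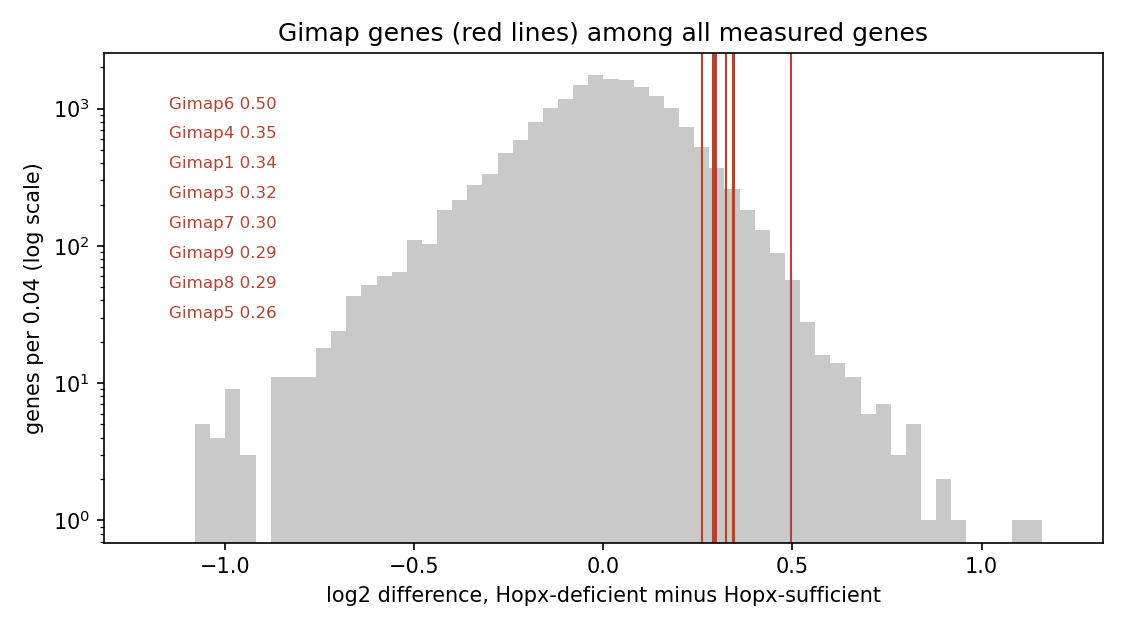
Histogram of the log2 difference, Hopx-deficient minus Hopx-sufficient, over the measured genes (grey; count per 0.04 on a log axis; 16 genes beyond 1.2 in either direction are not drawn), with a red line at each GIMAP gene and its value listed. The 8 lines stand between 0.26 and 0.50, on the right shoulder of the distribution and not at its end.

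Although the table holds no levels, the rounding of its values gives a coarse sign of them. In 5 GIMAP probe sets (of Gimap1, Gimap3, Gimap8 and both of Gimap4) the values on the 2 arrays missed being exact mirror images by the spacing of single-precision numbers between 8 and 16. This places their mean over both arrays in that range if the centring was done in single precision, which no source states. The same spacing was found in 1.36% of all probe sets with 1 gene symbol and in 35.6% of the 90 probe sets of cytosolic ribosomal protein genes. It was found in none of the 44 of olfactory receptor genes, but also in only 5.88% of the 17 of T cell marker genes. Its absence therefore says little about the level. The values of all 11 GIMAP probe sets lay on steps of that spacing, against 59.8% of all probe sets with 1 gene symbol. So did 94.1% of the T cell marker, 92.2% of the ribosomal protein and 52.3% of the olfactory receptor probe sets. Since such steps are common, they set no bound on the level of the other 6 GIMAP probe sets.

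The genes on either side of the block scattered around 0. Of the 20 protein-coding genes flanking it, 10 on each side, 16 were measured. Among these 6 were higher and 9 lower, against 51.4% and 47.4% of all genes, and 1 showed no difference. Their median was -0.01 and their range -0.32 to 0.41. The nearest measured gene before Gimap8, the zinc finger gene Zfp775, differed by -0.003. The nearest beyond Gimap3, Tmem176b, a membrane protein gene of myeloid and T cells, differed by -0.16, and the next, Tmem176a, by -0.01. Of these neighbours Doxl1 (0.41), Sspo (-0.32) and Krba1 (0.25) were farthest from 0, each with a lone probe set except Krba1, whose 2 read 0.01 and 0.49. Because the values hold no level, it cannot be seen which neighbours were detected. A value near 0 may come from a gene that was not detected.

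**Figure D3:**
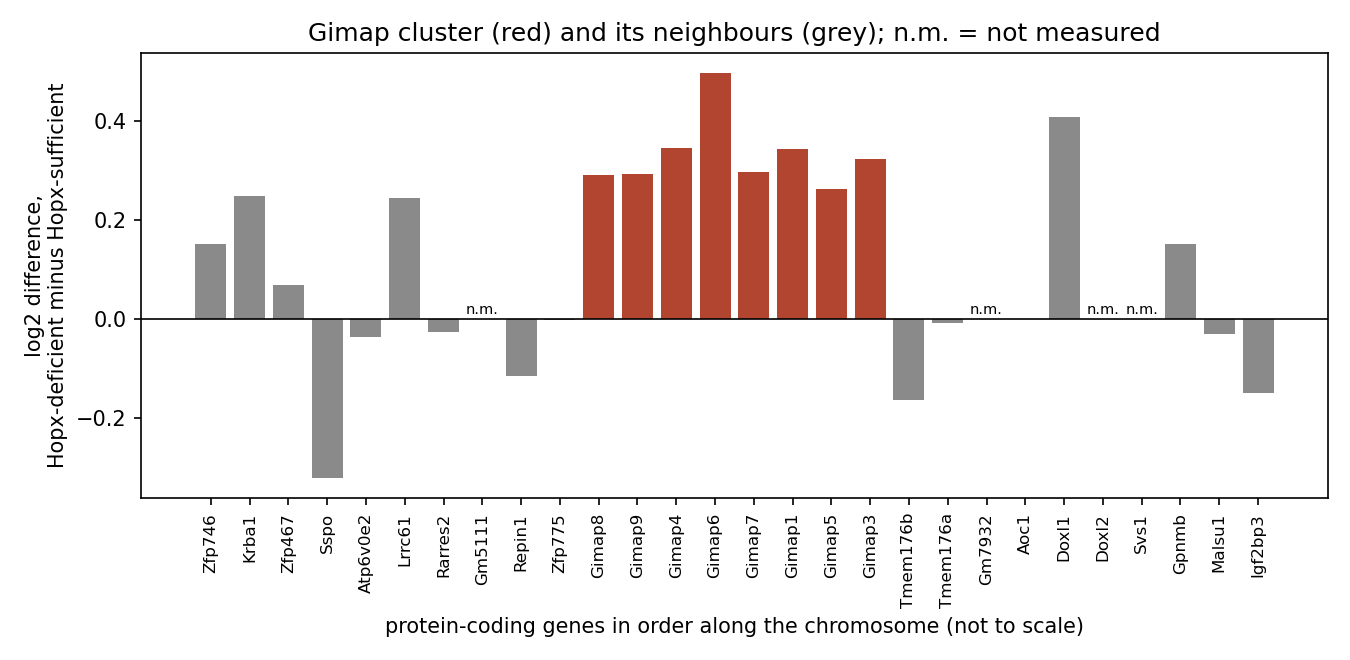
The log2 difference, Hopx-deficient minus Hopx-sufficient, of the 8 GIMAP genes (red bars) and of 10 protein-coding genes on each side (grey bars), in their order along chromosome 6 and not to scale; n.m. marks genes not measured. The red bars lie between 0.26 and 0.50 in an unbroken row, while the measured neighbours scatter around 0 with a median of -0.01. Which neighbours were detected in these cells cannot be seen.

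Genes whose proteins have been described as partners or effectors of GIMAP proteins were mixed. Of 9 measured, 5 were higher and 4 lower, against 51.4% and 47.4% of all genes, with a median of 0.11. Bcl2, which blocks the mitochondrial death pathway, was the only one past the 25% rule, at 0.40 (1.32-fold), with its 5 probe sets between 0.30 and 0.51. The pro-death gene Bcl2l11, encoding BIM, differed by -0.24, but its 5 probe sets disagreed, from -1.40 to 0.12. Gsk3b, a kinase whose activity is altered in T cells without Gimap5, differed by 0.17, and the Foxo genes, whose proteins are reduced in such cells, by 0.11 (Foxo1), 0.16 (Foxo3) and 0.12 (Foxo4). Gabarapl2, encoding the partner of Gimap6, differed by -0.06, although Gimap6 differed most of the GIMAP genes.

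The wider autophagy list was near 0, with 8 of 15 genes higher, against 51.4% of all genes, and a median of 0.03. Map1lc3b, which encodes an ATG8-family protein, was the exception at 0.39 (4 probe sets between 0.35 and 0.44), followed by the autophagy receptor gene Sqstm1 at 0.20 and Gabarap at 0.19. In the list of the interleukin-7 receptor and survival genes, which shares members with the partner list, 12 of 16 were higher and the median was 0.14. Il7r, the receptor that keeps resting T cells alive, differed by 0.36, with probe sets at 0.34 and 0.39. Bbc3, a pro-death gene encoding PUMA, differed by 0.50 (1 probe set), so the shift in this list was not limited to pro-survival members.

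Genes of resting T cells differed by about as much as the GIMAP genes. Of 18 measured, 16 were higher, against 51.4% of all genes, and 9 were so by at least 25%, against 4.36%. The median of 0.31 equalled that of the GIMAP genes at this rounding. The spread was wider, from -0.17 (Satb1, a chromatin organizer) to 0.62. The farthest from 0 were Pik3ip1, an inhibitor of phosphoinositide 3-kinase (0.62), Btg1, an antiproliferative gene (0.60), and Klf2, a factor of T cell quiescence and recirculation (0.57). This list was drawn up with results of these data known and is no independent evidence of direction. The same holds for the GIMAP members and the other lists, those of proliferation and of IRG and GBP genes included.

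Genes of proliferation went the other way. All 15 measured were lower on the Hopx-deficient array, against 47.4% of all genes, with a median of -0.52. Past the 25% rule were 11 of them, against 6.61% of all genes. The largest differences were in Cdc6 (-0.96), Gins2 (-0.88) and Ccne1 (-0.82), which act in the start of DNA replication, while Mki67 differed by only -0.06. Whether the GIMAP difference goes with the share of dividing cells was not tested.

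Another family of immune GTPases, the interferon-inducible IRG and GBP proteins, differed in direction from the GIMAP family. All 9 measured members were lower, against 47.4% of all genes, and 5 were so past the 25% rule, against 6.61%, with a median of -0.41. Gbp2 (-0.65), Iigp1 (-0.64) and Gbp6 (-0.52) were farthest from 0. The highest of the 9, Gbp8 at -0.03, was below the lowest GIMAP gene, Gimap5 at 0.26, so the values of these families did not overlap. The difference between the families was not tested.

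Of 14 transcription factor genes of lymphocytes that were listed as possible regulators, 10 were higher, with a median of 0.18. Ikzf3 (0.43), Fli1 (0.42), an ETS factor, and Runx1 (0.31) were farthest from 0, and the 6 probe sets of Runx1 ranged from -0.11 to 0.66. Foxp3, which was used in the sort, differed by 0.28. Ets1 differed by 0.21, Gata3 by 0.16, Runx3 by -0.09, Notch1 by -0.01 and Ikzf1 by 0.01.

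Markers of cell types that express GIMAP genes differed unequally. Of 10 T cell markers 8 were higher, against 51.4% of all genes, and 2 of them by at least 25%, against 4.36%. The median was 0.23 and the range ran from -0.01 to 0.34. Cd28 (0.34), Cd5 (0.33) and Cd247 (0.31) were highest, Cd3e stood at 0.23 and Cd4 at -0.01. All 8 GIMAP genes lay above the T cell median. Gimap6 (0.50), Gimap4 (0.346) and Gimap1 (0.343) also lay above the highest T cell marker gene, Cd28 (0.339), and the other GIMAP genes lay below it. Single T cell probe sets reached 0.46 for Cd28 and 0.54 for Cd247, and single GIMAP probe sets reached 0.59 for Gimap6. B cell markers, which come from the other lymphocytes rich in GIMAP transcripts, were lower in 7 of 7 cases, against 47.4% of all genes. Their median was -0.20, and 2 were lower by at least 25%, against 6.61% of all genes. Blk (-0.005), Cd79b (-0.06) and Pax5 (-0.06) lay near 0. Fcmr (-0.47), Cd79a (-0.41) and Cd22 (-0.29) were farthest from 0. Endothelial cells also express some GIMAP genes. Of 12 endothelial markers 6 were higher and 6 lower, against 51.4% and 47.4% of all genes, with a median of 0.00. Pecam1 (0.44), which T cells express too, Eng (0.17) and Egfl7 (-0.17) were farthest from 0.

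Markers of macrophages and dendritic cells were higher in 9 of 12 cases, with a median of 0.34 and a range from -0.38 (Lyz2) to 0.89 (Mrc1), and Cd163 stood at 0.47 and C1qb at 0.42. The list for CD8 T cells and NK cells was near 0 (4 of 7 higher, against 51.4% of all genes, median 0.01). In it Nkg7 stood at 0.44, Klrd1 at -0.41 and Ncr1 at -0.23. Platelet and erythroid markers had a median of 0.08 (6 of 7 higher, against 51.4% of all genes). Ppbp stood at 0.74, Itga2b at 0.24 and Pf4 at 0.16. Because the values hold no level, it cannot be seen which markers were detected, and the summed level of a marker list cannot be given. The part of other cell types in the GIMAP difference was not tested.

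**Figure D4:**
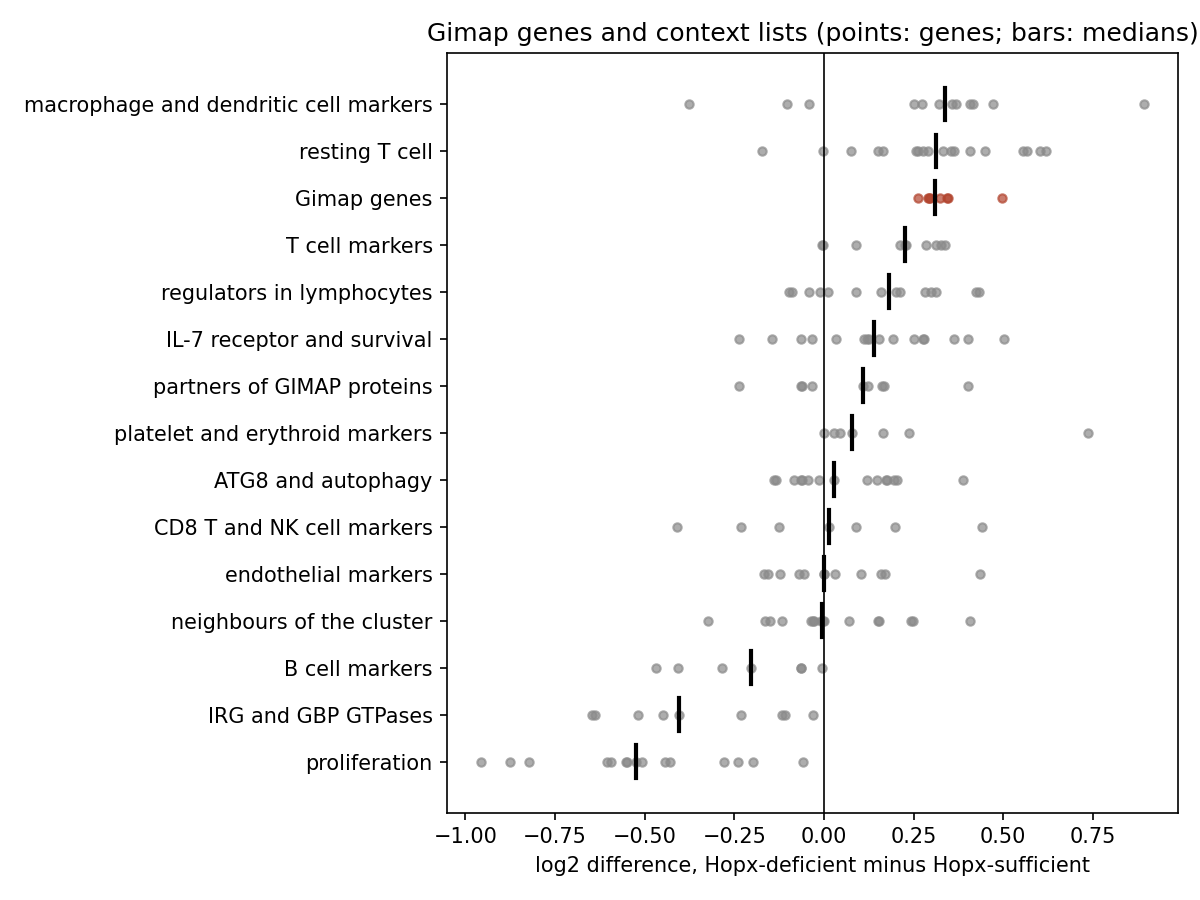
The log2 difference, Hopx-deficient minus Hopx-sufficient, of the GIMAP genes (red points) and of the genes in 14 context lists (grey points), with each median as a black bar, ordered by median. The GIMAP points are bunched between 0.26 and 0.50 around a median of 0.31. The medians of the resting T cell list (0.31) and of the macrophage and dendritic cell list (0.34) lie near it. That of the proliferation list (-0.52) lies away from it.

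As a check of the labels, Hopx itself differed by -5.15 on the log2 scale, 35.4-fold lower in Hopx-deficient cells, with probe sets at -5.43 and -4.86. Il2ra, which encodes CD25 and was used in the sort, differed by -0.05. The hybridization controls, bacterial and phage sequences spiked into each sample, lay between -0.21 and 0.01 (18 probe sets, median -0.12). The lowest GIMAP probe set (0.26) lay above all of them and on the other side of 0 from their median. The bacterial poly-A controls ranged from -0.16 to 0.79 over 27 probe sets, with a median of 0.03, so that single control probe sets exceeded every GIMAP gene.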

How the data were processed

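Total RNA was extracted with Trizol, cleaned up with QIAGEN reagents, labelled with biotin and hybridised, per the labels' protocols. The authors deposited log2-type values, each relative to the mean of both arrays for that probe set. The columns are mirror images, with a largest absolute row sum of 1e-06. The log base, the summarisation and the normalization between arrays are not given in the sources used here; base 2 was assumed.

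Hopx-sufficient values were subtracted from Hopx-deficient ones, with no further centring, and probe sets with 1 symbol were averaged per gene. Names came from the 2016 platform annotation; RefSeq (GRCm38.p6) gave the current symbol for 34741 of 34945 probe sets by their gene ID. Those with several symbols (932), no symbol (9160) or control content (64) were left out of gene values. The 8 members and 3 genes named for checks were fixed by rule, with the 3 genes of each list farthest from 0; any further gene was picked with its value in view. The members and lists were chosen with earlier results of these data known. List genes with no probe set of a single symbol here were not analysed. The averaging per gene was run on simulated differences with independent noise for each probe set, which does not cover error between arrays. The number of arrays limits the precision. The alternatives were centring, other summaries of probe sets, removal of probe sets by suffix or by value steps, natural logs and other folds. Python 3.11.15, numpy 2.4.6, pandas 2.3.3 and matplotlib 3.10.9 were used.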

Additional observations from a re-analysis of the deposited data

How the results depend on the processing

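Every GIMAP gene stayed higher on the Hopx-deficient array in all 48 recomputed gene values, which ran from 0.25 to 0.72. This count could hardly have come out otherwise and is no test of the direction. Because all 11 probe sets were higher, no choice among them and no change of log base could turn a sign. Centring could have, but it lowered each value by only 0.007. The median of the 8 genes lay between 0.30 and 0.31 under centring, other summaries of probe sets, removal of probe sets by suffix or, chosen after seeing the data, by value steps. If natural logs had been deposited, all log2 differences would be larger by a factor of 1.44, with Gimap6 at 0.72, all 8 GIMAP genes past the 25% rule and the proliferation median at -0.76. The count of 4 genes past the 25% rule became 3 with centring, which left Gimap3 outside the rule, and it moved with the fold, being 8 at 1.1-fold, 0 at 1.5-fold and 0 at 2-fold. Medians of lists near 0 changed sign in 6 of 84 recomputed values, 4 of them endothelial, with the CD8 T and NK cell list at -0.16 without suffixed probe sets and the autophagy list at -0.01 with the median over probe sets. No probe set listed a GIMAP gene among several symbols, so that alternative gave no value. No paired analysis was possible because there is a single array for either genotype, which also means that none could be dropped.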
